A study of Mus musculus with 4 samples.

Results

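Thrombomodulin (Thbd), annexin A2 (Anxa2) and annexin A3 (Anxa3) are 3 of the 11138 genes measured in cardiac endothelium of mice given lipopolysaccharide (LPS) or saline. They were chosen by gene symbol, as genes of the endothelial surface, on their LPS over saline ratios at 4 h and 24 h in these same arrays. Their own ratios are therefore given as a description, without a test. Thbd was lower after LPS at 24 h, Anxa2 was higher at 24 h, and Anxa3 was higher at both times, with 1 discordant spot at 4 h.

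Thrombomodulin is a transmembrane receptor of endothelial cells that binds thrombin. In that complex thrombin activates protein C, an anticoagulant protease, and loses its procoagulant activity, and inflammatory signals are known to lower thrombomodulin on endothelium. Annexins are proteins that bind membrane phospholipids in the presence of calcium. Annexin A2 forms a complex with the S100 protein p11, the product of S100a10, and on the endothelial surface this complex binds plasminogen and tissue plasminogen activator and so promotes fibrinolysis. Annexin A3 is a related annexin that is also abundant in neutrophils.

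Mice received LPS, an endotoxin from the envelope of Gram-negative bacteria, or saline by intraperitoneal injection, and cardiac endothelium was isolated 4 h or 24 h later. Amplified RNA of the LPS and saline animals was labelled with Cy5 and Cy3 and hybridised together to long-oligonucleotide arrays, 2 arrays per time and 4 in all, with LPS RNA in Cy5 on replicate 1 and in Cy3 on replicate 2. The labels name no other animals or extracts for the dye-reversed array and do not say whether the same extracts were used. Each time is therefore counted as 1 replicate. The sources used here do not give strain, sex, age, LPS dose, number of animals or the method of isolation.

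Values are log2 ratios of LPS over saline, with the sign of the arrays that carried LPS in Cy3 turned. The dyes in the labels make this direction the likely one, but the deposited table does not state it. Over all spots the deposited values of the arrays of a time correlated at only -0.056 at 4 h and -0.064 at 24 h. Over oligonucleotides whose 2 spots lay within 0.5 log2 units, these correlations were -0.372 and -0.501, which was the basis for turning the sign. If the table were already turned alike, every member would stand on opposite sides of 0 on the arrays of 24 h. If it held Cy3 over Cy5, each higher value would read lower. A ± gives the SD over the dye-reversed arrays (n = 2 arrays), read here as an error of hybridisation and dye that leaves out the variation among mice. The table holds ratios and no intensities, so neither the level of a gene nor the presence of endothelial markers in the isolate could be examined. Fewer cells of a type and less RNA per cell cannot be told apart.

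Each member was printed as 1 oligonucleotide in 2 adjacent spots, which gave 8 values per gene. Thbd was represented by an oligonucleotide for X14432, Anxa2 by one for D10024 and Anxa3 by one for AJ001633. Of the 3 genes, a promoter sequence from RefSeq (build GRCm38.p6) was held for Anxa2. It is the one shown because none was held for Thbd and Anxa3. It runs from 250 bases before to 50 bases after the annotated start, chr9:69453433-69453732 on the + strand, and capitals mark matches to the motifs searched.

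Anxa2 promoter: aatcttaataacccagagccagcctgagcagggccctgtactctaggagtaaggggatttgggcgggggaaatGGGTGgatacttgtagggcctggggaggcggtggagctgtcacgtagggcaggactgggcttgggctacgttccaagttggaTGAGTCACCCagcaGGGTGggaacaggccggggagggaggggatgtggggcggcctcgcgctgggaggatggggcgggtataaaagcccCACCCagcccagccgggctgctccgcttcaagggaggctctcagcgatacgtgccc

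The motifs, searched on both strands, were CACCC (KLF-type), TGANTCA (AP-1-type), GGGNNTTTC (NF-kB-type) and TTCNNNGAA (STAT-type). CACCC was found at 4 places in the Anxa2 window, with first bases at -177, -90, -81 and -6 from the start, those at -177 and -81 on the - strand. TGANTCA was found once, at -95, where it shares its last bases with the CACCC at -90. Of 32851 mouse promoter windows of the same length, 57.5% held CACCC and 7.81% held TGANTCA. The other motifs, held by 4.36% (GGGNNTTTC) and 8.30% (TTCNNNGAA) of the windows, did not occur in these letters. No binding of a factor was measured.

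At 4 h Thbd was close to 0 with LPS in Cy5 and somewhat below 0 with LPS in Cy3, and at 24 h it was lower in every spot. At 4 h its 2 spots read -0.03 and -0.20 with LPS in Cy5 and -0.82 and -0.52 with LPS in Cy3. At 24 h they read -2.09 and -2.22 with LPS in Cy5, which is 4.25-fold and 4.65-fold lower. With LPS in Cy3 at 24 h they read -1.10 and -1.07, or 2.14-fold and 2.10-fold lower. All 8 values were thus below 0, and the 4 spots of 24 h lay below the 4 spots of 4 h. The spots of an array lay close together, within 0.30 log2 units on each array, while the arrays of 24 h differed by more than the spots did.

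Averaged over spots and centred on the array median, Thbd stood at -0.38 ± 0.40 at 4 h and at -1.64 ± 0.69 at 24 h, a 3.11-fold lower ratio. The 24 h minus 4 h difference was -1.25, made up of -2.03 between the arrays with LPS in Cy5 and -0.48 between those with LPS in Cy3. The size of the later shift therefore rested largely on 1 dye orientation. Counted from the lowest of 11138 genes, Thbd ranked 598 on the array of 24 h with LPS in Cy5 and 1207 on that with LPS in Cy3. On the arrays of 4 h it ranked 4718 and 1299, so with LPS in Cy3 its rank hardly differed between the times. Many genes thus read lower than Thbd in each orientation.

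Anxa2 was slightly above 0 at 4 h and strongly higher at 24 h. At 4 h its spots read 0.34 and 0.59 with LPS in Cy5 and 0.54 and 0.51 with LPS in Cy3, all between 1.27-fold and 1.51-fold. At 24 h they read 2.79 and 3.37 with LPS in Cy5, or 6.92-fold and 10.4-fold higher, and 2.32 and 2.60 with LPS in Cy3, or 4.99-fold and 6.08-fold higher. Every spot of 24 h was above every spot of 4 h by a wide margin, in both dye orientations. The averages were 0.50 ± 0.03 at 4 h and 2.75 ± 0.50 at 24 h, the latter 6.73-fold. The 24 h minus 4 h difference was 2.25, with 2.62 between the arrays with LPS in Cy5 and 1.88 between those with LPS in Cy3. Anxa2 ranked 74 from the top of 11138 genes on the array of 24 h with LPS in Cy5 and 391 with LPS in Cy3.

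Anxa3 was higher at both times, but its reading at 4 h depended on the spot. With LPS in Cy5 at 4 h the spots read -0.06 and 3.53, no difference in one and an 11.6-fold higher ratio in the other. With LPS in Cy3 at 4 h they read 1.28 and 1.02. A gap of 3.59 log2 units between spots was not rare on that array, where 91.65% of oligonucleotides had a smaller gap and the median gap was 0.45. At 24 h the spots were 1.15 and 1.14 with LPS in Cy5 and 1.52 and 1.42 with LPS in Cy3, from 2.21-fold to 2.87-fold higher. These 4 values lay within 0.4 log2 units, the tightest set of the 3 genes at that time.

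Anxa3 averaged 1.45 ± 0.43 at 4 h and 1.29 ± 0.17 at 24 h, or 2.73-fold and 2.44-fold. The 24 h minus 4 h difference was -0.16, and it was -0.58 with LPS in Cy5 and 0.26 with LPS in Cy3, so the arrays of the times overlapped. From the first spot alone the 4 h mean was 0.61 and the difference 0.70, and from the second spot alone they were 2.28 and -1.02. Whether Anxa3 was higher at 4 h or at 24 h could thus not be read from these spots.

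**Figure D1:**
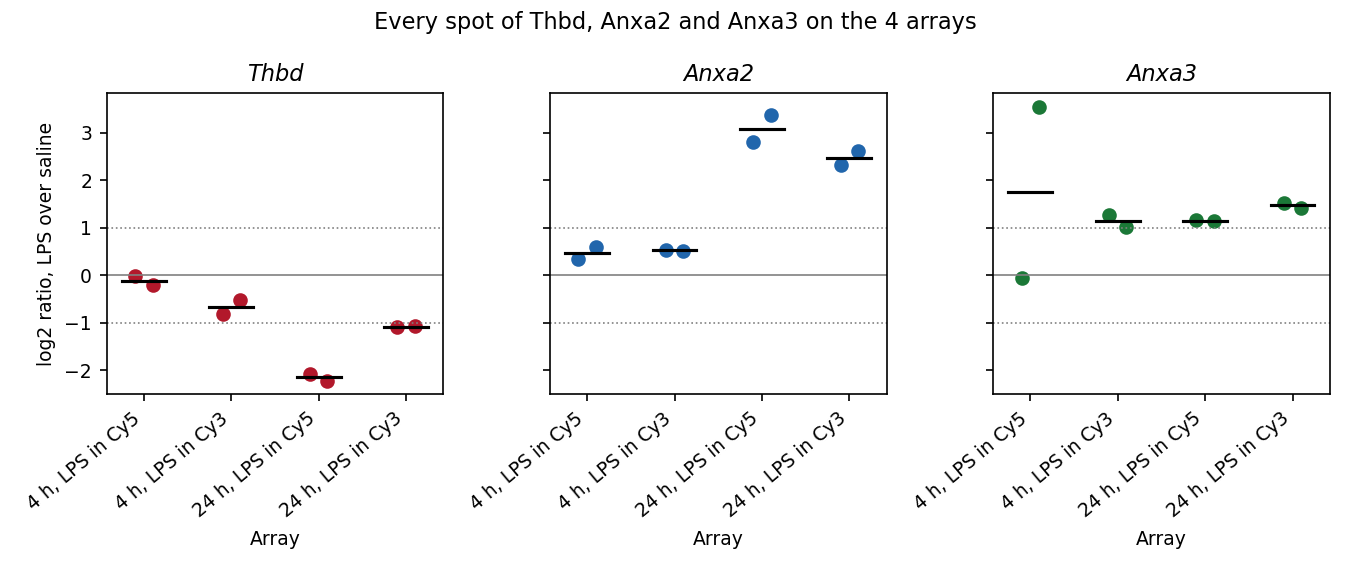
Log2 ratio of LPS over saline (vertical axis) of each spot (point) of Thbd, Anxa2 and Anxa3 on the 4 arrays (horizontal axis), before centring, with the mean of the 2 spots as a bar and dotted lines at 2-fold. At 24 h the 4 Thbd spots lie between -2.22 and -1.07 and the 4 Anxa2 spots between 2.32 and 3.37, while the Anxa3 spots of 4 h with LPS in Cy5 lie at -0.06 and 3.53.

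Genes were called at a time if each of its arrays read 2-fold or more (1 log2 unit) in the same direction. At 4 h 1 of the 3 members was called, Anxa3, against 362 of all genes (3.25%), 251 of which (2.25%) were higher. Quantile normalization of the arrays called 561 genes at 4 h, 328 higher and 233 lower. At 24 h all 3 members were called, 2 higher and 1 lower, against 780 of all genes (7.00%), with 3.48% higher and 3.52% lower. Scale normalization called 424 genes at 24 h. The members were chosen on these same ratios, so nothing can be read from their counts.

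A stricter rule asked that every spot on both arrays be 2-fold on the same side. At 4 h it held for 0 of the 3 members and for 175 genes (1.57%), Anxa3 being lost through its discordant spot. At 24 h it held for all 3, and for 406 genes (3.65%), 1.87% higher and 1.78% lower. Of the 10180 genes with 2 spots, as the members have, 3.99% passed at 24 h. The calls of Thbd and Anxa3 at 24 h were close to the threshold. With each array scaled to the same spread, Thbd read -1.66 and -0.91 and Anxa3 0.91 and 1.11, so that neither was called, while Anxa2 was called at 2.41 and 1.90.

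For 24 h against 4 h, a call required a gap of 1 log2 unit or more between the means and no overlap of the arrays. Anxa2 was among the 1050 genes (9.43%) that stood higher at 24 h and Thbd among the 1151 (10.3%) that stood lower, and Anxa3 was in neither group. For Thbd this did not hold under quantile or scale normalization. The sources used here do not say whether both times shared their saline RNA.

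**Figure D2:**
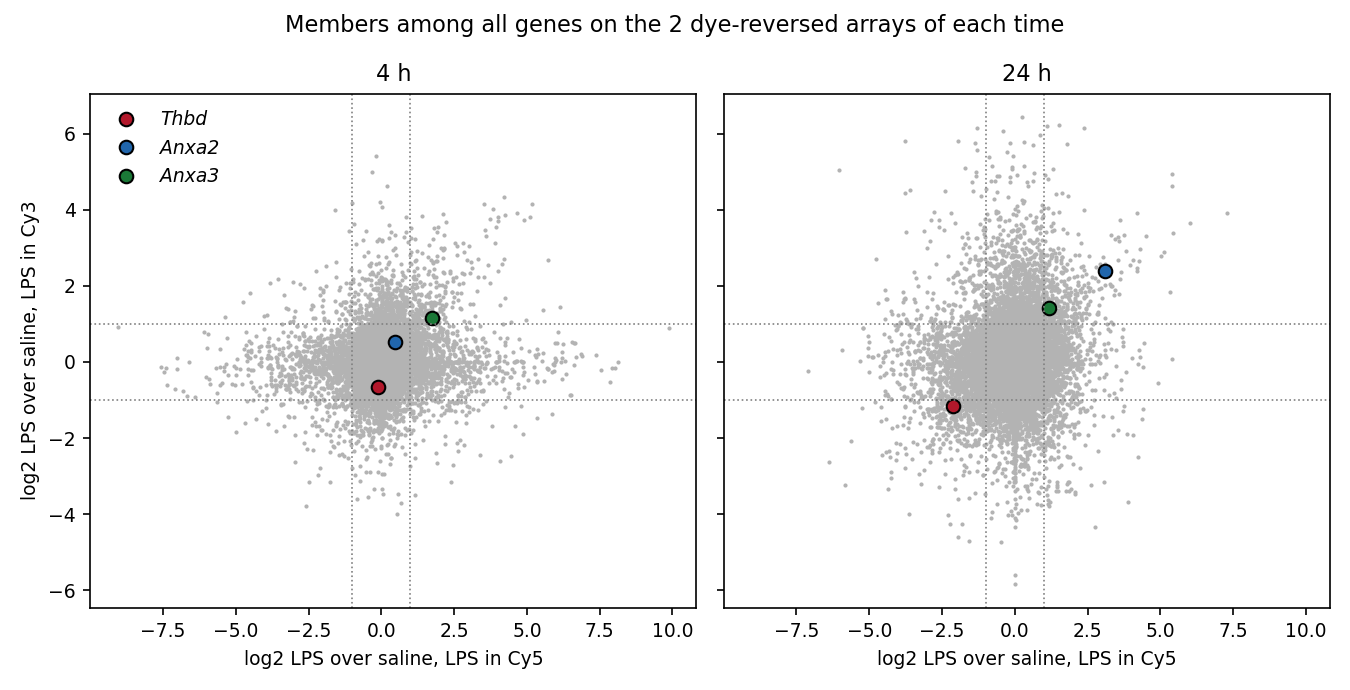
Log2 LPS over saline with LPS in Cy5 (horizontal axis) and in Cy3 (vertical axis), for all 11138 genes (grey points) and the 3 members (coloured), at 4 h and 24 h, with dotted lines at 2-fold. At 24 h Anxa2 at 3.10 and 2.40 stands in the upper right among other genes beyond 2-fold, Anxa3 at 1.17 and 1.41 just inside the upper right corner and Thbd at -2.13 and -1.15 in the lower left corner.

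The other annexins were compared next, since 12 members of the family were measured, each with 2 spots. Of the 10 annexins other than Anxa2 and Anxa3, 0 were called at 4 h and 0 at 24 h, against 3.25% and 7.00% of all genes. At those shares a count of 0 among 10 genes does not set Anxa2 and Anxa3, chosen on their ratios, apart from the family. The median of the 10 was 0.11 at 4 h and -0.09 at 24 h, against -0.02 for all genes at each time. Anxa5, which binds phosphatidylserine and is used to stain dying cells, stood at 0.71 ± 0.37 at 4 h and 0.57 ± 0.07 at 24 h, with all 4 arrays above 0. Anxa7 stood at 0.84 ± 0.70 and 0.44 ± 0.29 and was likewise above 0 on all 4 arrays. The spots disagreed more: those of Anxa5 at 4 h ran from -0.23 to 2.15. Those of Anxa7 at 24 h ran from no difference to 1.41.

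Other annexins differed between dye orientations or stood lower. Anxa1, a mediator of glucocorticoid action in inflammation, read 0.79 with LPS in Cy5 and -0.95 with LPS in Cy3 at 24 h, so the orientations disagreed in sign. Anxa4 was at 0.07 ± 0.68 at 4 h and -1.09 ± 0.61 at 24 h, and Anxa9 at 0.35 ± 0.04 and -1.38 ± 0.88, and both stood lower at 24 h than at 4 h by the rule for separated arrays. The spots of Anxa9 at 24 h ran from -4.06 to 0.01, so that value rests on discordant spots. Anxa6, Anxa8, Anxa10, Anxa11 and Anxa13 had means between -0.46 and 0.18 at 4 h and between -0.37 and 0.55 at 24 h.

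**Figure D3:**
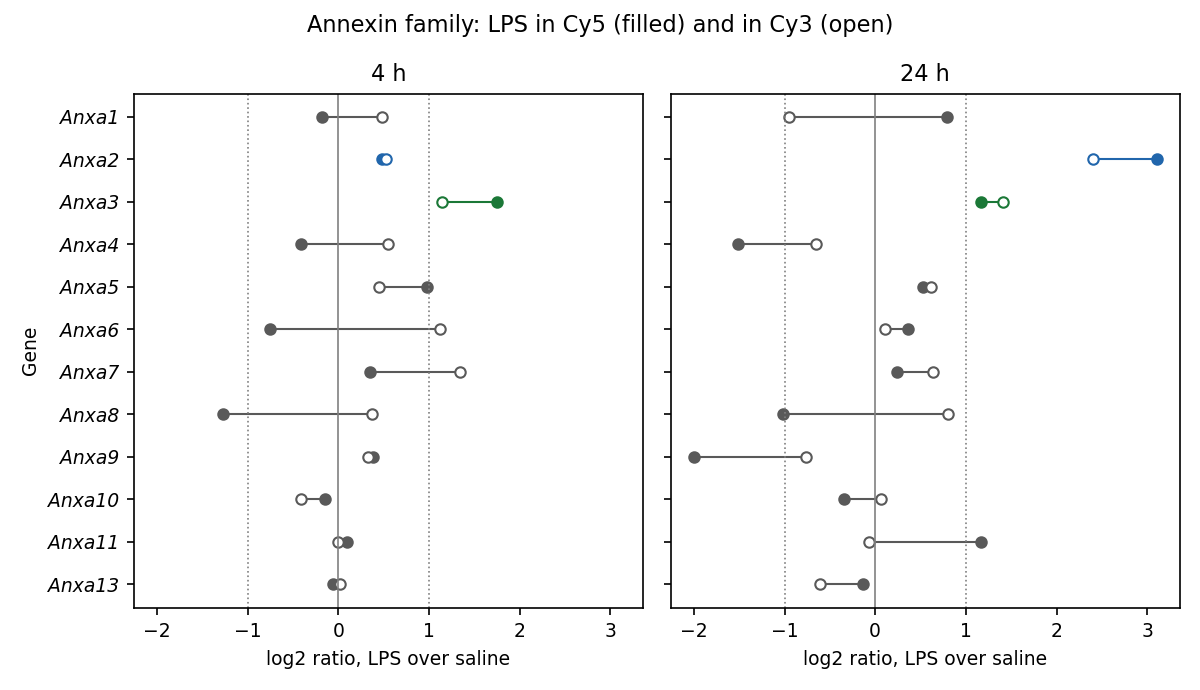
Log2 LPS over saline (horizontal axis) of the 12 annexin genes (rows) at 4 h and 24 h, with LPS in Cy5 as filled and in Cy3 as open points joined by a line, and dotted lines at 2-fold. At 24 h both points of Anxa2 and of Anxa3 lie above 1, and those of Anxa1 and Anxa8 lie on opposite sides of 0.

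The binding partner of annexin A2 was not called. S100a10, which encodes p11, read -0.003 and -0.49 at 4 h and 0.26 and -0.86 at 24 h, with means of -0.25 ± 0.35 and -0.30 ± 0.79. Its arrays thus disagreed in sign at 24 h, where the SD exceeded the mean. Among the 6 measured S100 genes of annexin partners, 1 was called, at 24 h (16.7%, against 7.00% of all genes). This was S100a11, a partner of annexin A1, at 1.72 ± 1.01, with spots from 0.92 to 3.30, and it lost its call without centring, with medians over spots and under quantile and scale normalization.

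Of 10 measured fibrinolysis genes, Anxa2 included, 0 were called at 4 h, against 3.25% of all genes. At 24 h Anxa2 alone was called, against 7.00% of all genes, and Anxa2 was chosen on these ratios. With so few genes, counts near those shares are not a result about fibrinolysis. Plat, the tissue plasminogen activator, was at 0.56 ± 0.88 at 4 h and read 1.13 and -0.99 at 24 h, and Plg, plasminogen, at 0.37 ± 0.10 and 0.23 ± 0.55. Plau, the urokinase-type activator, and its receptor Plaur were at 0.78 ± 0.58 and 0.76 ± 0.06 at 4 h and at 0.09 ± 0.13 and 0.34 ± 1.24 at 24 h. Both arrays of 4 h were above 0 for Plau and Plaur, without a call. Each had 4 spots per array, which at 4 h ran from -0.01 to 3.39 for Plau and from -0.70 to 1.93 for Plaur. These genes, S100a10 and the uncalled genes of the protein C, Krüppel-like and coagulation paragraphs that follow were named for their roles, with their values known.

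The list for the protein C pathway, to which thrombomodulin belongs, held 13 measured genes. Among them were the Krüppel-like factors Klf2, Klf4 and Klf6, which are not parts of the pathway itself. At 4 h 0 were called, against 3.25% of all genes. At 24 h 1 was called higher, Klf4, and 1 lower, Thbd (15.4%, against 7.00% of all genes). Thbd was chosen on these ratios, so nothing is read from this count. Procr, the endothelial protein C receptor that presents protein C to the thrombin complex, was at -0.09 ± 0.20 at 4 h and at -0.52 ± 1.29 at 24 h, with 0.40 and -1.43 on the arrays of 24 h. The lower ratio of Thbd was thus not accompanied by a like reading of its co-receptor in both orientations. F2r, the thrombin receptor PAR1, was below 0 on all 4 arrays without a call, at -0.46 ± 0.28 and -0.58 ± 0.35. Proc at 24 h and Gas6 at 24 h differed by over 3 log2 units between orientations.

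Klf2 and Klf4, Krüppel-like factors known to promote thrombomodulin expression in endothelium, stood above 0 at 24 h, when Thbd was lower. Klf4 was at -1.64 ± 0.97 at 4 h, with arrays at -0.96 and -2.33, just short of a call. At 24 h it was at 1.51 ± 0.64, with arrays at 1.96 and 1.06 and every spot 2-fold higher. Under quantile and scale normalization Klf4 was called lower at 4 h and was not called at 24 h. Klf2 was at -0.03 ± 0.44 and 0.73 ± 0.52 and was not called. Klf6 was at -0.08 ± 0.88 and -1.08 ± 0.12, with 24 h arrays at -0.99 and -1.165, just short of a call on 1 array.

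**Figure D4:**
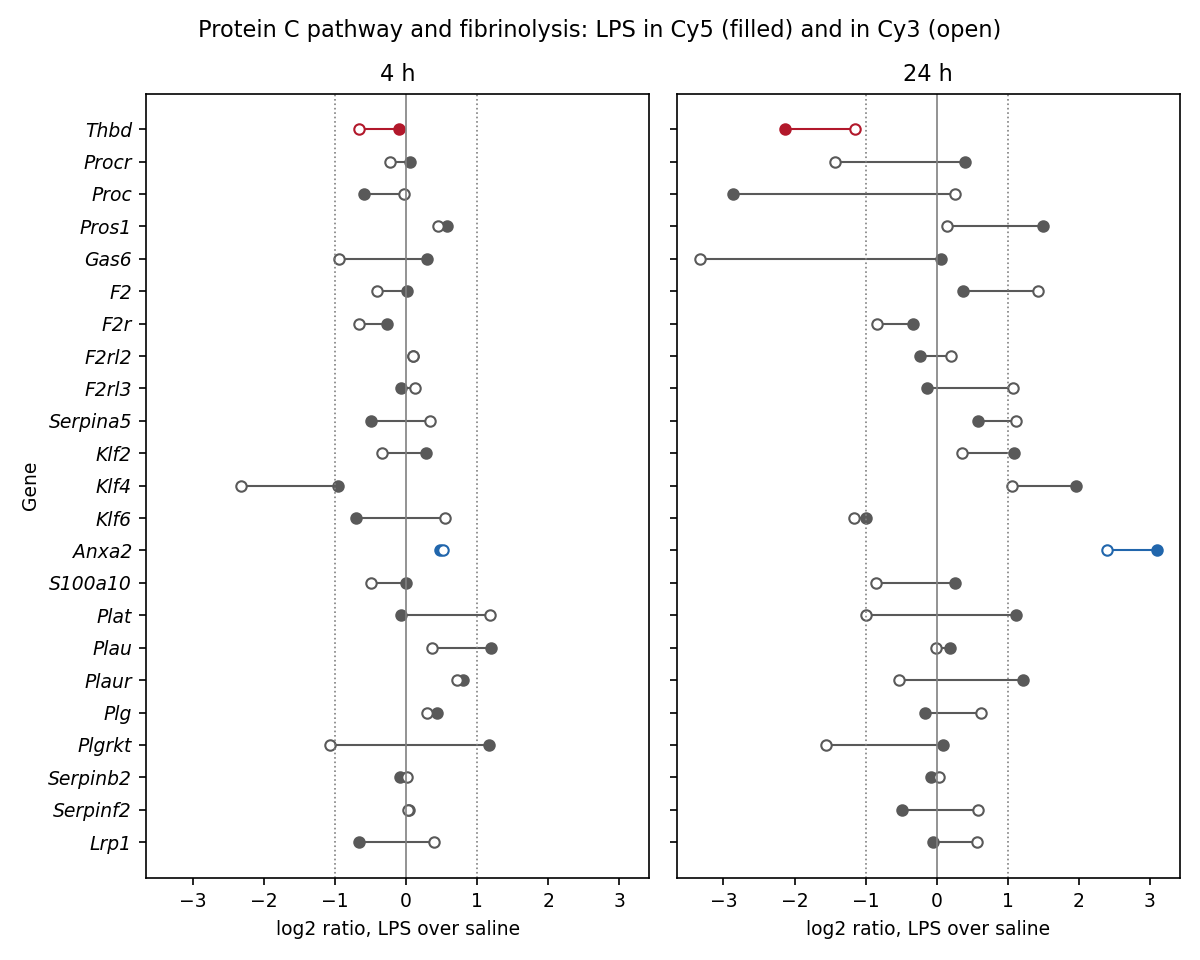
Log2 LPS over saline (horizontal axis) of the measured genes (rows) of the protein C and fibrinolysis lists at 4 h and 24 h. The Krüppel-like factors are included. Points are filled with LPS in Cy5 and open with LPS in Cy3, joined by a line, and dotted lines mark 2-fold. At 24 h only Thbd, Klf4 and Anxa2 have both points beyond 2-fold on the same side.

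Among 19 other coagulation factors and inhibitors, 0 were called at 4 h, against 3.25% of all genes, and 1 at 24 h (5.26%, against 7.00%). The latter was Serping1, the C1 inhibitor that also inhibits kallikrein and factor XII. It stood at 1.89 ± 2.31 at 4 h, with arrays at 3.52 and 0.25, and at 2.50 ± 0.52 at 24 h with every spot 2-fold. F3, tissue factor, the initiator of coagulation, was at 0.39 ± 0.13 and -0.58 ± 0.11 over 4 spots per array, which ran from -3.99 to 1.38 at 24 h. Tfpi, its inhibitor, was at -0.35 ± 0.14 and -0.09 ± 0.68. Over all 55 measured genes of these pathway lists other than the members, 0 were called at 4 h and 3 at 24 h (5.45%, against 7.00% of all genes), namely S100a11, Klf4 and Serping1. Under quantile and under scale normalization Serping1 alone was called at 24 h, and with the sign not turned the calls were F5, F10 and F13a1 instead. The median of the 55 genes was 0.02 at 4 h and 0.05 at 24 h.

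Markers of other cells were examined because annexins and thrombomodulin are also made outside the endothelium. Of 99 measured markers of 8 other cell types, 1 was called at 4 h (1.01%, against 3.25% of all genes) and 13 at 24 h, 8 higher and 5 lower (13.1%, against 7.00% of all genes). Of 13 neutrophil markers, 3 were higher and 1 lower at 24 h (30.8%, against 7.00% of all genes), with a median of -0.13. They ranged from -1.62 to 2.59, the highest being S100a8, a calcium-binding protein of neutrophils named here after its value was seen. At 4 h 0 of these 13 were called, against 3.25% of all genes. At that share a count of 0 among 13 genes is not a result about neutrophils. Of 18 endothelial markers, 1 was higher and 2 were lower at 4 h (16.7%, against 3.25% of all genes). At 24 h 5 were higher and 0 lower (27.8%, against 7.00% of all genes), with a median of 0.59. The marker lists were drawn up with earlier results of these data known, so nothing is read from these shares. With the sign of the LPS-in-Cy3 arrays not turned, 1 endothelial marker was called at 24 h, with a list median of 0.07, and 4 of the 99 other markers, all lower. The part of a shift in cell types in the ratios of the members was not tested.

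Genes with the most similar readings were found by the Euclidean distance over the 4 centred array values, among 11135 genes. Nearest to Thbd were Ngp, a neutrophil granule protein, at a distance of 0.21, Ppfia3 at 0.28 and Smo, the Hedgehog signal transducer, at 0.29, against a median distance of 2.86. By construction the nearest genes lie below the median distance. None of Ngp, Ppfia3 and Smo was 2-fold in every spot at 24 h. Thbd, which was chosen on these ratios, passed that rule narrowly, with spots of -1.10 and -1.07 on the array with LPS in Cy3. Nearest to Anxa2 were Plin2, which coats lipid droplets, at 0.59, Ppic, a peptidyl-prolyl isomerase, at 0.66 and Arpc5, a subunit of the actin-nucleating Arp2/3 complex, at 0.78, against a median of 4.28. All of them were 2-fold in every spot at 24 h, with means of at least 2.45. Nearest to Anxa3 were Myl12b, a myosin regulatory light chain, at 0.30, Ran, the nuclear transport GTPase, at 0.52 and the ribosomal protein gene Rpl10 at 0.57. The distance between Anxa2 and Anxa3 was 2.59, and that between Thbd and Anxa2 was 6.46.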

How the data were processed

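The deposited table held 32448 log2 ratios per array, made by the authors, with a median of 3e-07 on each array. The sources used here give no background correction, dye normalization, spot filter or ratio direction. Spots with a ratio of exactly 1 (within 1e-06 of 0 in log2) made up 10.2% to 13.4% of an array, and the spots of an oligonucleotide correlated at 0.19 to 0.32. Names came from the platform annotation (24344 spots with 1 symbol, 98 with several, 8006 without), of which 24076 matched RefSeq by gene identifier and 0 symbols changed. The sign of LPS-in-Cy3 arrays was turned, spots and then oligonucleotides were averaged, and the median over genes was subtracted from each array, which shifted values by at most 0.06 log2 units. Spot values are given before centring. Call rules were tested on simulated data. Python 3.11.15, pandas 2.3.3 and, for an alternative, limma 3.58.1 in R 4.3.3 were used.

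The members and gene lists were chosen with earlier results of these data known. The naming rule took the members, called genes of the pathway lists, all annexins and the 3 nearest genes per member, and genes named outside it are marked as such in the text. With 1 replicate per time the main results carry no test, and precision is limited by how few arrays there are. The alternatives were the unturned sign, centring, quantile and scale normalization, ratios of exactly 1 left out, medians over spots, single arrays, a threshold of 1.5 log2 units and limma on arrays as separate samples. Single spots were added after seeing the data.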

Additional observations from a re-analysis of the deposited data

Results flagged for a closer look

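Anxa9 and Klf4 stood on opposite sides of 0 at the 2 times on every array, a difference that was not tested. Anxa9 was above 0 at 4 h (0.38 and 0.32) and below 0 at 24 h (-2.002 and -0.76), a 24 h minus 4 h difference of -1.73. Its spots ran from -0.20 to 0.85 at 4 h and from -4.06 to 0.01 at 24 h, so they lay on both sides of 0 at each time. Klf4 was below 0 at 4 h (-0.96 and -2.33) and above 0 at 24 h (1.96 and 1.06), a difference of 3.16. Under quantile and scale normalization Klf4 was not called at 24 h. By the rule for separated arrays 9.43% of all genes stood higher at 24 h than at 4 h and 10.3% lower, so such differences were common.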

How the results depend on the processing

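Of 132 recomputed values, 90 moved by less than the SD of the arrays (counts: by less than 1.5 times), 41 moved further and 1 called value changed sign. Many of the 90 could not have moved further. A single array always lies within the SD of the mean of 2 arrays, and the median of 2 spots equals their mean. The tally of 90 is therefore no measure of stability. With the LPS-in-Cy3 arrays unturned, Anxa3 at 24 h read -0.12, Anxa3 at 4 h 0.30, Thbd 0.28 at 4 h and -0.49 at 24 h, and Anxa2 -0.020 and 0.35 with a difference of 0.37. No member was then called, and 158 genes were called at 4 h (19 in every spot), 411 at 24 h (60 in every spot) and 1298 between the times. By construction, this setting turns values that agreed into opposite ones. Under quantile normalization Anxa2 at 4 h was 0.65 and 561 genes were called at 4 h. Under scale normalization Anxa2 was 0.65 at 4 h and 2.15 at 24 h, a difference of 1.51, Anxa3 was 1.01 at 24 h with a difference of -0.80, and 557 genes were called at 4 h and 424 at 24 h, 232 in every spot. Spot by spot, Anxa2 at 4 h was 0.45 and 0.56, Anxa3 at 4 h 0.61 and 2.28 and its difference 0.70 and -1.02. At 1.5 log2 units, 146 genes were called at 4 h and 270 at 24 h. In limma, 0 genes passed an adjusted p of 0.05 at each time. At an unadjusted p under 0.05, limma had 531 genes at 4 h and 717 at 24 h. This fit takes dye-reversed arrays as separate samples, so its p-values are taken to cover hybridisation and dye error only. With 1 array per time, which has fewer values to pass, 1414 to 2317 genes were called at 4 h and 3239 to 3408 at 24 h, 738 to 982 and 1534 to 1661 in every spot, and 3873 to 4270 between the times. Leaving out ratios of exactly 1, leaving out centring and taking medians over spots kept each member's calls. These settings could hardly change them. No member spot had a ratio of exactly 1, medians of 2 spots equal their means, and centring moved values by at most 0.06 log2 units. Other causes of the changes between settings were not tested. Without intensities, signal over background is unknown.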
